A study of Mus musculus with 26 samples.

Results

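The clustered protocadherins are 58 genes that lie side by side on mouse chromosome 18 in 3 clusters, alpha, beta and gamma. They were taken from the deposited expression table by gene symbol alone (*Pcdha* and *Pcdhac*, *Pcdhb*, *Pcdhga*, *Pcdhgb* and *Pcdhgc* followed by a number), which gave 58 of its 24409 genes. Of these, 14 belong to the alpha, 22 to the beta and 22 to the gamma cluster. Clustered protocadherins are cell surface proteins of the cadherin superfamily. In neurons each cell uses its own mix of them, and matching mixes on neighbouring membranes bind each other and let a neuron tell its own branches from those of others. In the alpha and gamma clusters every member has its own promoter and a large first exon of its own, coding for the outer part of the protein, and that exon is spliced to a set of constant exons shared by the whole cluster. Beta members are single-exon genes. Promoter choice involves CTCF, cohesin and DNA methylation, and outside the nervous system most members are thought to be little used.

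RNA was measured in male mouse embryonic stem (ES) cells of the C57BL/6J strain, from 3 wild-type (WT) lines and 2 lines without ZFP57 (KO). ZFP57 is a KRAB zinc finger protein that binds methylated DNA and keeps imprinted regions methylated. In the KO its coding exons carry a targeted disruption, and the embryos that gave the lines lacked the zygotic copies. All lines were derived from embryos collected at day 2.5, grown with inhibitors of Erk and Gsk3 (2i) and LIF, and used up to passage 15. Total RNA was depleted of ribosomal RNA and sequenced in paired reads of 150 bp, and the authors deposited FPKM, fragment numbers divided by transcript length and library size. ZFP57 binding sites came from chromatin immunoprecipitation in the same genotypes. *Zfp57* RNA itself was at 75.9, 72.3 and 70.6 FPKM in WT and 19.0 and 21.6 FPKM in KO, a log2 fold change of -1.84. All 10 ES cell marker genes examined had a mean of at least 1 FPKM, and markers of fibroblasts summed to at most 0.94 FPKM in any library. Neural markers summed to between 59.5 and 65.4 FPKM in WT and between 54.0 and 68.1 FPKM in KO. Of the 9 that could be tested, *Sox1*, a transcription factor of neural progenitors, rose by 1.83 on the log2 scale, and *Nes* and *Elavl3* (-2.50) fell. *Dcx* and 5 further neural markers did not reach the test. Of 10 ES cell markers 5 rose, with *Klf4* (0.74) and *Tfcp2l1* (0.60) highest, and 2 fell, *Dppa3* (-2.30) and *Klf2* (-0.28). Of 4 tested markers of primed epiblast *Fgf5* (1.57) and *T* (1.02) rose and *Pou3f1* (-0.76) fell, and of 3 tested markers of primitive endoderm *Sox7* (1.82) rose. Among all 14612 genes tested, 18.8% were called higher in KO and 22.3% lower. The part of these shifts in the protocadherin values was not tested. In bulk RNA, fewer cells of a type and less RNA per cell cannot be told apart.

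The 3 clusters occupy the same stretch of chromosome 18 (mm10, plus strand). The alpha cluster runs from 36930285 to 37188897, the beta cluster from 37264998 to 37521419 and the gamma cluster from 37661775 to 37841873. Alpha members hold 4 exons each, of which 3 exons of 2860 bp together are shared by all. Gamma members likewise hold 4 exons, and their 3 shared exons measure 2109 bp in all. These shared exons made up 43.3 to 54.6% of the transcript of an alpha member and 41.5 to 45.6% of that of a gamma member, except *Pcdhgb8* with 22.7%, whose listed transcript ends early. A fragment on a shared exon fits every member of its cluster, so the members' FPKM values are not separate measurements.

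**Figure D1:**
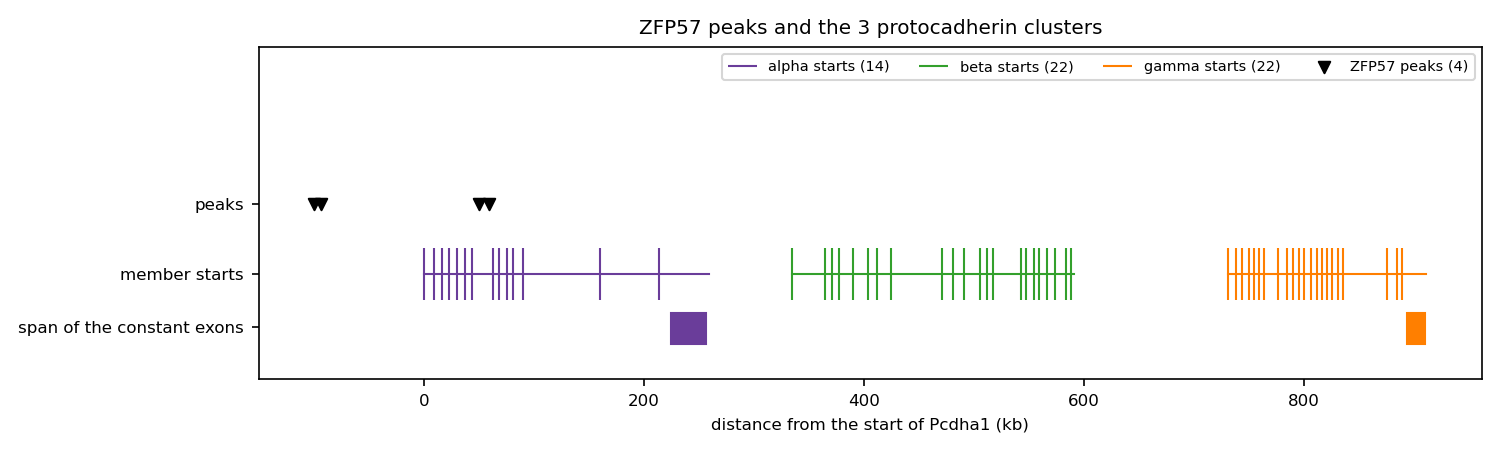
Map of the 3 clusters, with distance from the start of *Pcdha1* in kb on the x axis. Vertical lines mark the start of each of the 58 members, filled boxes the span that holds the shared exons, and triangles the 4 nearest ZFP57 peaks, 2 before the alpha cluster and 2 inside it.

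The gamma cluster stood far above the others in level per kilobase of transcript. Alpha members lay between 0.01 and 0.04 FPKM in every library and beta members between 0 and 0.04 FPKM. Gamma members lay between 3.83 and 6.21 FPKM in WT and between 5.52 and 8.45 FPKM in KO. No gamma value in any library came near the highest alpha or beta value. Only the 22 gamma members reached the mean of 0.1 FPKM that was required for the test, and none of the 14 alpha or 22 beta members did.

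**Figure D2:**
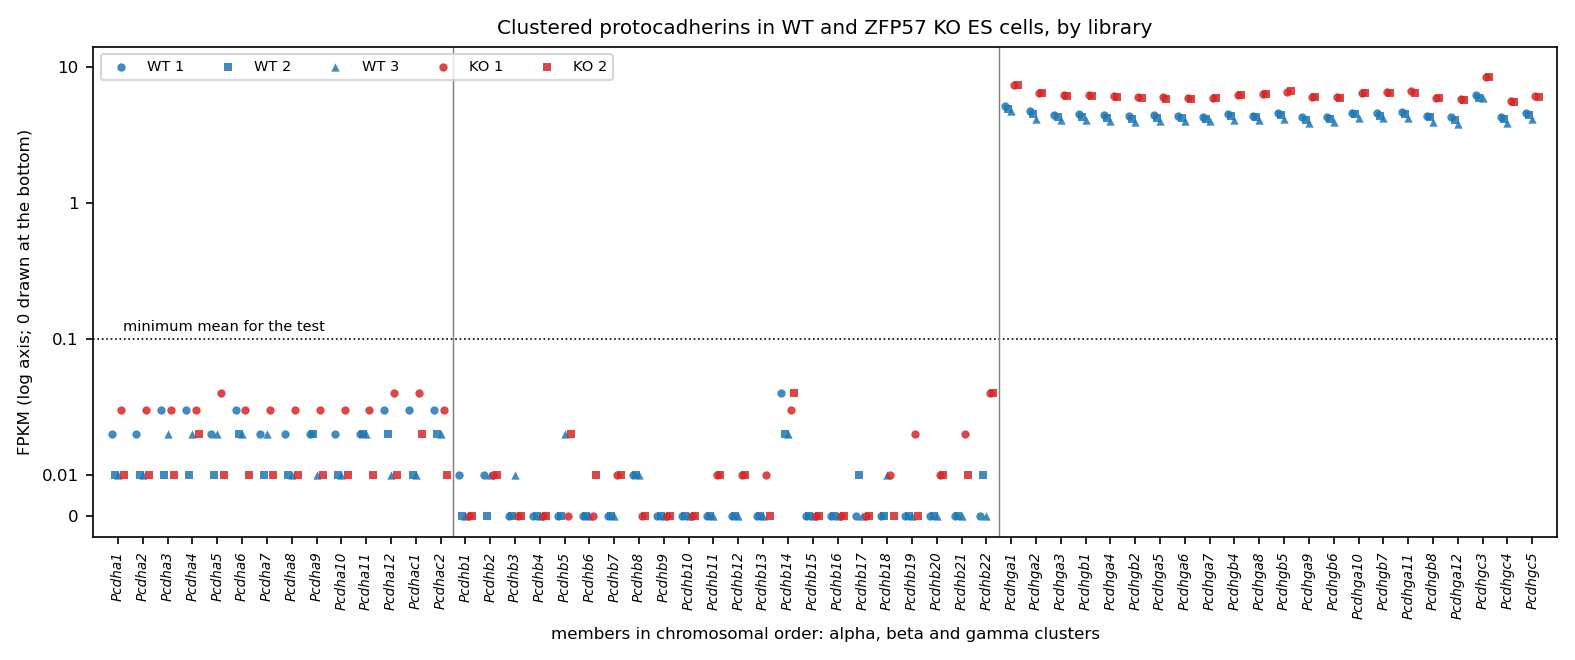
FPKM of each of the 58 members (log axis, with 0 drawn at the bottom) in the 3 WT (blue) and 2 KO (red) libraries, in chromosomal order. Alpha and beta members stay at or below 0.04 FPKM, and all gamma members lie above 3.8 FPKM with red above blue.

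The best-fitting step between values of short genes gave the depth behind these levels. FPKM multiplied by length fell on whole multiples of 1 fragment, within 0.1 of a fragment, in 92.0 to 95.2% of values, where 20% would at an arbitrary step. One fragment on 1 kb was worth 0.0170 to 0.0197 FPKM, which corresponds to about 50800000 to 59000000 fragments per library. An alpha member therefore rested on about 3 to 11 fragments per library and a beta member on about 0 to 8. FPKM rounded to 2 decimals do not give these counts to the unit, since 1 fragment on an alpha member is 0.0028 to 0.0035 FPKM.

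The alpha cluster was close to silent in both genotypes. *Pcdhac1* and *Pcdhac2* are the C-type alpha members, which in neurons are used by most cells rather than picked at random. *Pcdhac1* was at 0.03, 0.01 and 0.01 FPKM in WT and 0.04 and 0.02 FPKM in KO. *Pcdhac2* was at 0.03, 0.02 and 0.02 FPKM in WT and 0.03 and 0.01 FPKM in KO. Their WT and KO values overlapped. Together with these, *Pcdha4*, *Pcdha6* and *Pcdha12* had the highest means of the cluster, each 0.022 FPKM. *Pcdha4* was at 0.03, 0.01 and 0.02 FPKM in WT and 0.03 and 0.02 FPKM in KO. *Pcdha6* was at 0.03, 0.02 and 0.02 FPKM in WT and 0.03 and 0.01 FPKM in KO. *Pcdha12* was at 0.03, 0.02 and 0.01 FPKM in WT and 0.04 and 0.01 FPKM in KO. The WT and KO values overlapped in all 14 alpha members, and KO replicate 2 was lower than KO replicate 1 in each. The members share their constant exons and so are not 14 separate measurements.

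By FPKM per member most of the beta cluster was lower still, with 75 of its 110 values listed at 0. Alpha members can count the same fragments on their shared exons, so this does not rank the clusters by separate fragments. A value of 3 fragments, the upper limit that a true count of 0 allows, stands for 0.0105 to 0.0236 FPKM depending on the member's length, by counting error only. With 2 decimals a listed 0 need not be a count of 0 in the longer members. There 1 fragment is worth as little as 0.0035 FPKM (*Pcdhb16*) or 0.0049 FPKM (*Pcdhb4*). *Pcdhb4*, *Pcdhb9*, *Pcdhb10*, *Pcdhb15* and *Pcdhb16* were listed at 0 in all 5 libraries. The best measured member was *Pcdhb14*, at 0.04, 0.02 and 0.02 FPKM in WT and 0.03 and 0.04 FPKM in KO, with no separation of the genotypes. *Pcdhb22*, the last beta gene before the gamma cluster, was at 0, 0.01 and 0 FPKM in WT and at 0.04 FPKM in both KO libraries. Its KO values rested on about 6 and 7 fragments and its WT values on about 0, 2 and 0. *Pcdhb2*, next in mean level together with *Pcdhb5* (0.008 FPKM each), was at 0.01, 0 and 0.01 FPKM in WT and 0.01 FPKM in both KO libraries. In 6 of 22 beta members both KO libraries were above all WT libraries, as in 30.3% of the genes that were tested, and in 1, *Pcdhb8*, both were below, as in 33.1% of those genes. Beta genes share no exons, so their fragments can be added. The sum was 12, 9 and 14 fragments in WT and 33 and 33 fragments in KO. Without *Pcdhb22* it was 12, 7 and 14 fragments in WT and 27 and 26 fragments in KO, so the groups still did not overlap. These sums were formed after the values were seen, come from FPKM rounded to 2 decimals, and have no test.

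The gamma cluster was expressed in WT and higher in KO throughout. All 22 gamma members rose, by log2 fold changes of 0.44 to 0.57 with a median of 0.52. The lowest was 1.36-fold, for *Pcdhgc4*, and *Pcdhga1*, next to the highest, was at 1.49-fold. The adjusted p-values of limma with Benjamini-Hochberg adjustment over 14612 genes ran from 0.00108 to 0.0047. Of all genes tested, 41.1% were called, 18.8% higher in KO and 22.3% lower, and the median log2 fold change was -0.01. In 22 of 22 gamma members both KO libraries lay above all 3 WT libraries, against the 30.3% of all genes tested. A log2 fold change of at least 0.5 was found in 14 of the 22, against 8.03% of all genes called higher, and none reached 1, against 2.93%. All 22 also had an adjusted p under 0.01, against 10.1% of all genes called higher. Of the other 340 genes tested on chromosome 18, 21.5% were called higher and 16.8% lower, with a median log2 fold change of 0.00.

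*Pcdhgc3*, a C-type gamma member, had the highest level of all 58 genes. It was at 6.21, 5.94 and 5.94 FPKM in WT and 8.45 and 8.39 FPKM in KO, a log2 fold change of 0.48 ± 0.05 (SE; limma, adjusted p = 0.00131). *Pcdhga1*, the first gene of the cluster, was at 5.13, 4.89 and 4.77 FPKM in WT and 7.33 and 7.39 FPKM in KO (0.57 ± 0.06; limma, adjusted p = 0.00108). In both genes the genotypes were well apart. *Pcdhga11*, the member with the next highest mean, was at 4.62, 4.47 and 4.19 FPKM in WT and 6.62 and 6.47 FPKM in KO, with a log2 fold change of 0.55. *Pcdhga8*, with the highest log2 fold change of 0.57, was at 4.37, 4.25 and 4.08 FPKM in WT and 6.29 and 6.37 FPKM in KO. The lowest belonged to the other C-type members. *Pcdhgc4*, the one gamma member known to be required for survival after birth in mice, was at 4.27, 4.15 and 3.84 FPKM in WT and 5.59 and 5.52 FPKM in KO, a log2 fold change of 0.44 ± 0.07. *Pcdhgc5* was at 4.60, 4.46 and 4.15 FPKM in WT and 6.07 and 6.01 FPKM in KO, a log2 fold change of 0.45 ± 0.07. WT replicate 3 was the lowest, or level with the lowest, library in all of these genes.

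**Figure D3:**
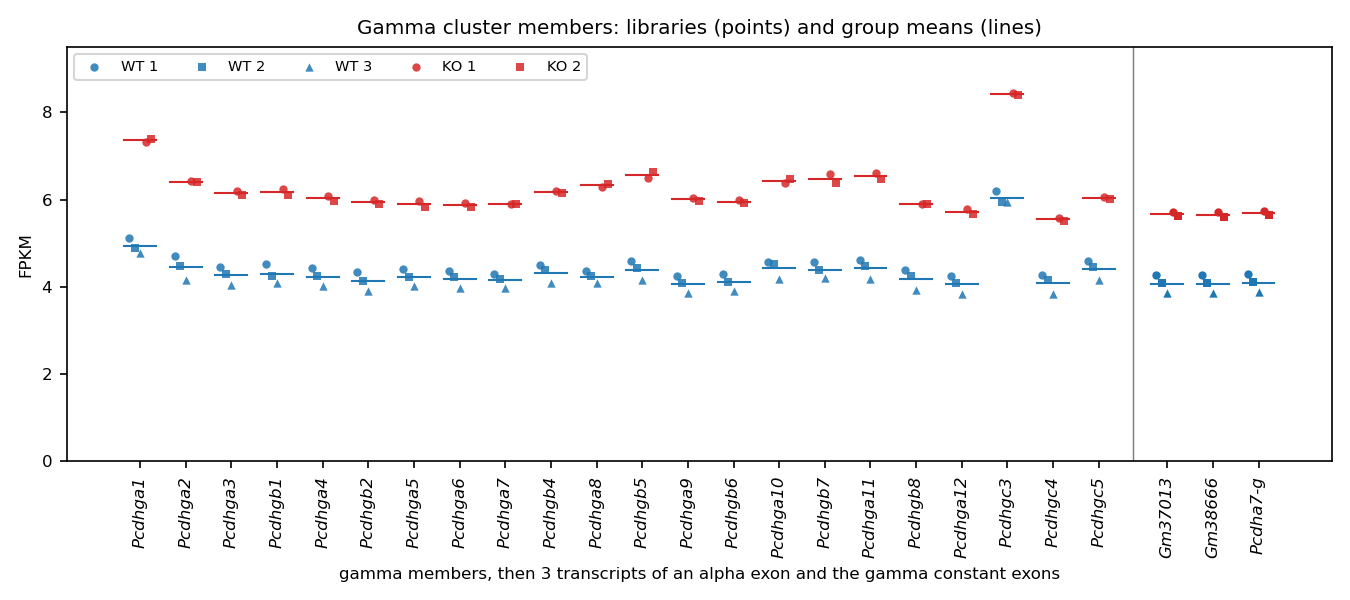
FPKM of the 22 gamma members and of 3 transcripts that join an alpha exon to the gamma shared exons, with points for the 3 WT (blue) and 2 KO (red) libraries and lines for group means. The joined transcripts, from 3.87 to 4.29 FPKM in WT and from 5.60 to 5.75 FPKM in KO, lie close to most gamma members.

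How much of this is a shared measurement could be read from 3 further rows of the table. *Gm37013*, *Gm38666* and *Pcdha7-g* are annotated transcripts that join the first exon of *Pcdha4*, *Pcdha6* or *Pcdha7* to the gamma shared exons. Those alpha exons were almost unused, so these rows give the shared exons nearly alone. *Gm37013* was at 4.27, 4.09 and 3.87 FPKM in WT and 5.72 and 5.62 FPKM in KO, a log2 fold change of 0.47 (limma, adjusted p = 0.00322). Turned into fragments, the 3 rows differed by at most 2 in WT replicate 1, at 1091 to 1093, and by at most 4 in KO replicate 2, at 1434 to 1438. Such near-equal numbers show that the shared exons gave each row nearly the same amount. Whether each fragment was counted in full for every gene or divided evenly among them cannot be told from these rows, and the levels below assume that it was counted in full. Per length of the shared exons alone, the level was 8.94 ± 0.44 FPKM (SD, n = 3) in WT and 12.4 ± 0.17 FPKM (SD, n = 2) in KO, a ratio of 1.39. The 22 calls are therefore largely 1 measurement of the shared exons, repeated.

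What each gamma member adds on its own exon was compared by dividing its FPKM by the mean of the 3 joined transcripts in the same library, which needs no transcript length. For *Pcdhgb8*, kept in the counts, the ratio does not isolate the own exon, as its listed transcript holds 735 of the 2109 shared bp. This ratio was above all WT libraries in both KO libraries for 17 of 22 members, below for 2 and overlapping for 3. For FPKM itself, 30.3% of all genes tested had both KO libraries above all WT libraries and 33.1% below. All ratios of a library have the same denominator, so the members are not separate measurements here either. Among A-type members the ratio was above for 11 of 12, with a median difference of 3.73%, and among B-type members for 6 of 7, with a median difference of 3.68%. Among the 3 C-type members it was above for none, below for *Pcdhgc4* and *Pcdhgc5*, and overlapping for *Pcdhgc3*. Since FPKM is rounded to 2 decimals, a small gap may be rounding. Apart by more than rounding allows were 16 members above, which leaves out *Pcdhga6*, and 1 below, *Pcdhgc4*, while the gap of *Pcdhgc5* was within rounding. With 3 against 2 libraries an exact permutation test cannot go below p = 0.1, so that test cannot pass a threshold of 0.05 whatever the ratios are. No other test was run on the ratios, and the comparison was chosen after the values were seen.

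The largest differences in this ratio belonged to *Pcdhga8*, *Pcdhgb5* and *Pcdhga1*. The ratio of *Pcdhga8* was 1.02, 1.04 and 1.05 in WT and 1.10 and 1.13 in KO, higher by 7.59%. That of *Pcdhgb5* was 1.08, 1.08 and 1.07 in WT and 1.13 and 1.18 in KO, higher by 7.50%. That of *Pcdhga1* was 1.20, 1.19 and 1.23 in WT and 1.28 and 1.31 in KO, higher by 7.42%. For each of these the genotypes were apart. *Pcdhgc3* stood highest in every library, at 1.45, 1.45 and 1.53 in WT and 1.48 and 1.49 in KO, and its genotypes overlapped. *Pcdhgc4* was at 1.00, 1.01 and 0.99 in WT and 0.98 and 0.98 in KO, and *Pcdhgc5* at 1.08, 1.09 and 1.07 in WT and 1.06 and 1.07 in KO. From WT to KO the mean ratio changed by 0.41% for *Pcdhgc3*, -2.15% for *Pcdhgc4* and -1.26% for *Pcdhgc5*, and by 0.45 to 7.59% for the A-type and 1.29 to 7.50% for the B-type members. Whether C-type members differ from the others in this change was not tested.

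**Figure D4:**
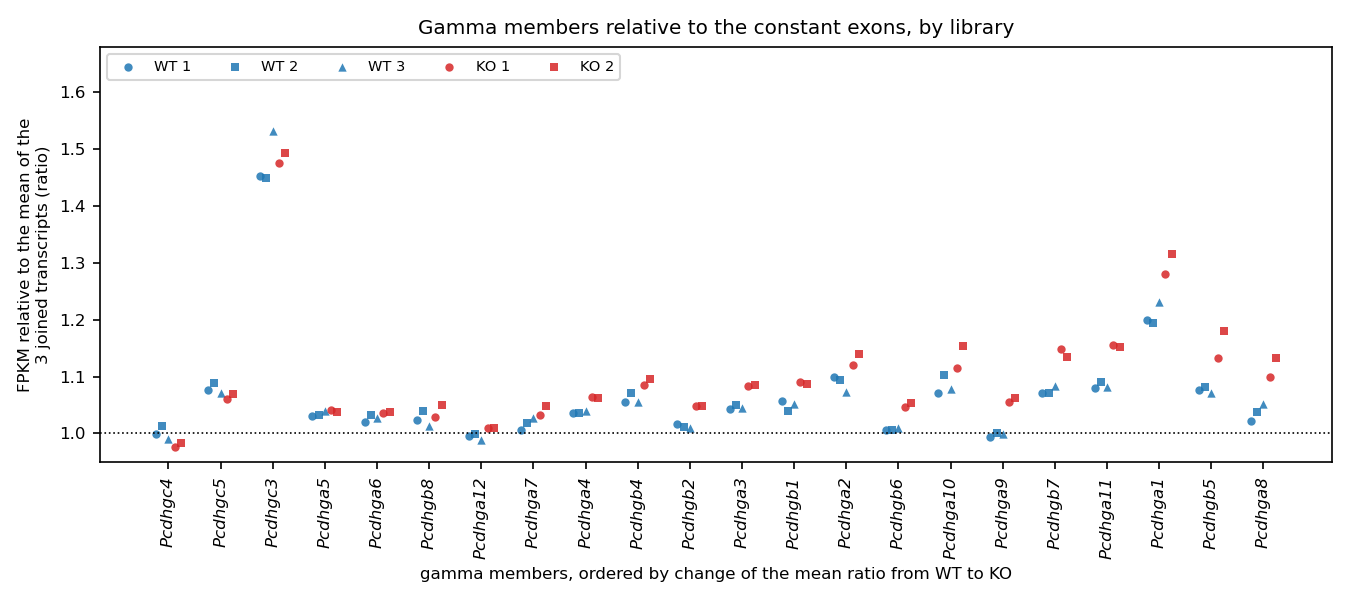
FPKM of each gamma member divided by the mean of the 3 joined transcripts of the same library, for 3 WT (blue) and 2 KO (red) libraries, ordered by the change from WT to KO. *Pcdhgc4* on the left has red below blue, with *Pcdhgc5* next to it nearly level, and *Pcdhga8*, *Pcdhgb5* and *Pcdhga1* on the right have red above blue.

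The same data can be put as a level of each first exon. The fragments of the shared exons were subtracted from those of each member and the rest was divided by the length of its own exon, for 21 members (*Pcdhgb8* was left out for its short listed transcript). In WT the own exon held a median of 6.78 to 7.55% of a member's fragments, and in KO 9.16 to 9.39%. With first exons taken as 200 bp shorter these medians were 2.63 to 3.4% in WT and 5.11 to 5.35% in KO. *Pcdhgc3* had the highest level on its own exon, at 3.64, 3.47 and 3.86 FPKM in WT and 5.11 and 5.19 FPKM in KO, or 1.41-fold. *Pcdhga1* followed, at 1.70, 1.58 and 1.76 FPKM in WT and 3.11 and 3.41 FPKM in KO, or 1.94-fold. The own exons of these 2 genes were the highest of the 21 in each library.

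Other own exons were low in WT and differed by more. That of *Pcdhga9* was at 0.12, 0.17 and 0.14 FPKM in WT and 0.79 and 0.85 FPKM in KO, resting on 17, 26 and 19 fragments in WT and 108 and 123 in KO. That of *Pcdhgb2* rested on 22, 15 and 11 fragments in WT and 70 and 74 in KO. With first exons taken as 200 bp shorter the WT values of both came out below 0, so no fold is given for them. That of *Pcdhga8* was at 0.36, 0.46 and 0.54 FPKM in WT and 1.27 and 1.60 FPKM in KO, or 3.18-fold with the listed length. With the shorter one it was 7.47-fold and rested on 3, 21 and 30 fragments in WT and 108 and 162 in KO, so the fold depends on the length taken. These 3 are A- and B-type members, which in neurons are picked by promoter choice. Over the 18 A- and B-type members the median fold was 2.23, and both KO libraries were above all WT libraries in 18 of 18. With the shorter first exons a fold could be formed for 13 of them, with a median of 3.35, and 17 of 18 had both KO libraries above. For FPKM, both KO libraries were above all WT libraries in 30.3% of all genes tested. The same shared amount was subtracted from every member of a library, so the members are not separate measurements. The C-type *Pcdhgc4* was at 0.59, 0.67 and 0.48 FPKM in WT and 0.57 and 0.62 FPKM in KO, which overlap, and *Pcdhgc5* was at 0.74, 0.81 and 0.63 FPKM in WT and 0.83 and 0.91 FPKM in KO. With the shorter first exons the genotypes of *Pcdhgc5* overlapped too, at 1.04-fold, and *Pcdhgc4* was at 0.71-fold, with *Pcdhgc3* still at 1.41-fold.

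**Figure D5:**
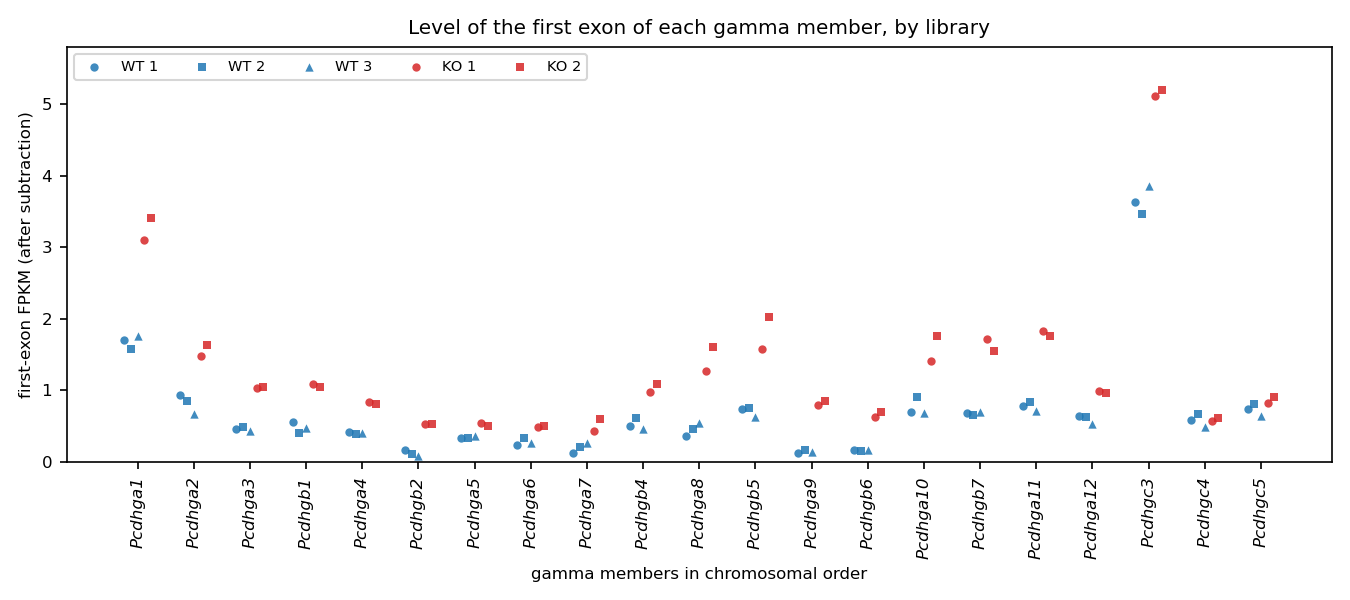
Level of the own first exon of 21 gamma members in FPKM, after the fragments of the shared exons were subtracted, for 3 WT (blue) and 2 KO (red) libraries in chromosomal order. *Pcdhgc3* and *Pcdhga1* are highest, and only *Pcdhgc4* has red and blue overlapping.

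Added over the 21 members, the own exons stood at 14.5 ± 0.28 FPKM (SD, n = 3) in WT and 28.2 ± 1.27 FPKM (SD, n = 2) in KO, a ratio of 1.94. *Pcdhgc3* made up 25.2% of that sum in WT and 18.3% in KO, and *Pcdhga1* 11.6% in both. With the shorter first exons, and values below 0 set to 0, *Pcdhgc3* made up 38.9% in WT and 26.1 and 24.0% in the KO libraries, and *Pcdhga1* 15.9% in WT and 14.9% in KO. The sum over A-type members was 6.91 FPKM in WT and 14.8 FPKM in KO, that over B-type members 2.66 and 6.73 FPKM, and that over C-type members 4.96 and 6.61 FPKM. With the shorter first exons, and values below 0 kept, these sums were 3.19 and 9.85 FPKM for A-type, 0.71 and 4.15 FPKM for B-type and 4.20 and 5.54 FPKM for C-type members. The sum of own exons was 13.6 FPKM higher in KO than in WT, and the shared exons were 3.48 FPKM higher. The sum was 1.63 times the level of the shared exons in WT and 2.27 times in KO. With the shorter first exons, and values below 0 set to 0, it was 0.997 times in WT and 1.58 times in KO. Where the sum exceeds the shared level, the own-exon levels cannot be read as amounts of complete transcripts that end in the shared exons. These levels depend on where each transcript starts in the annotation that was used for counting, which is not given in the sources used here. With first exons taken as 200 bp shorter, 5 to 6 members came out below 0 in WT libraries, and 18 of 21 had both KO libraries above all WT libraries. The ratio of the sums was then 2.20 with values below 0 set to 0, and 2.41 with them kept. First exons of neighbouring members resemble each other, so reads could be split between them, and whether strand was used in counting is not stated. The RNA was total RNA, and later first exons lie in introns of the earlier gamma genes. Unspliced RNA of an earlier gene could therefore be counted on a later first exon, which was not tested.

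In the deposited list, ZFP57 peaks near these genes lay in the near-silent alpha cluster and the stretch before it. Of 1423 peaks, 49 lay on chromosome 18 and 2 inside the clusters, both in the alpha cluster between the starts of *Pcdha7* and *Pcdha8*. The peak at 36979878 to 36980295 (mm10, 418 bp) lay 6067 bp after the start of *Pcdha7*. The peak at 36988574 to 36989372 (mm10, 799 bp) lay 3095 bp before the start of *Pcdha8*. Both touched no exon of a member and lay in the introns of the 7 genes *Pcdha1* to *Pcdha7*, between their first exon and the shared exons. With 20 kb allowed, 10 members had a peak, all of them alpha. The members with the nearest starts were *Pcdha8* (0.02, 0.01 and 0.01 FPKM in WT, 0.03 and 0.01 FPKM in KO), *Pcdha7* (0.02, 0.01 and 0.02 FPKM in WT, 0.03 and 0.01 FPKM in KO) and *Pcdha9* (0.02, 0.02 and 0.01 FPKM in WT, 0.03 and 0.01 FPKM in KO). None of them separated the genotypes.

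The pair of peaks inside the alpha cluster differed in makeup from those before it. They were 6.9 and 13.1% repeat sequence (soft-masked in the genome), against a median of 72.0% over all peaks. The peaks 93434 and 99991 bp before *Pcdha1* were 89.8 and 98.1% repeat. All 4 held the hexanucleotide TGCCGC, which ZFP57 recognises when its CpG is methylated, on either strand, 1 copy each inside the cluster and 2 copies each before it. It was present in 92.0% of all peaks and in 6.6% of intervals of the same length 2000 bp upstream of them. The nearest peak lay 275.6 kb from any beta gene and 672.4 kb from any gamma gene, and the next peak after the last gamma gene was 1118.5 kb away. The alpha members near a peak were too low for the test. When the filter on low values was dropped, all 14 alpha members entered the limma fit and 0 passed, also at an unadjusted p under 0.05, at levels of a few fragments. DNA methylation at the peaks was not analysed here.

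Genes that act on protocadherin promoters were measured as a list, chosen for their known roles. Of 27 listed, 26 were in the table under these symbols and all 26 were tested, and 9 rose and 3 fell, with a median log2 fold change of 0.04 (18.8% of all genes tested rose and 22.3% fell). *Stag1*, a cohesin subunit, rose from 16.6, 17.0 and 17.2 FPKM in WT to 25.7 and 26.8 FPKM in KO (log2 fold change of 0.63), and *Ehmt2*, an H3K9 methyltransferase, rose by 0.33. *Dnmt3a*, a de novo DNA methyltransferase, fell from 10.4, 9.21 and 11.0 FPKM in WT to 3.25 and 2.84 FPKM in KO, a log2 fold change of -1.71, and *Tet3* fell by 0.45. *Ctcf*, which joins protocadherin promoters to their enhancer, differed by -0.01 and did not pass the test (adjusted p = 0.857 by limma). *Dnmt3b* (log2 fold change of -0.26) and *Setdb1* (-0.01), both known to restrain protocadherin promoters, did not pass either, and *Smchd1*, another such repressor, rose by 0.17.

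Of 18 genes that act beside or downstream of clustered protocadherins, 17 were tested, and 9 rose and 2 fell, with a median log2 fold change of 0.20, beside the same 18.8% and 22.3% over all genes, which hold for the next lists too. *Psen2*, a subunit of the secretase that cuts protocadherins, rose by 0.65, and *Celsr1*, an atypical cadherin, by 0.63. *Celsr2* had a log2 fold change of -0.64 and *Ptk2b*, a kinase bound by the shared part of gamma proteins, one of -0.60. Of 12 protocadherins outside the clusters, *Pcdh19* alone was tested, at 0.69, 0.72 and 0.64 FPKM in WT and 1.19 and 0.84 FPKM in KO (limma, adjusted p = 0.0649), and 5 were at 0 in all libraries. Of 12 classical cadherins and catenins, 9 were tested, and 5 rose, with *Cdh4* (1.00) and *Jup* (0.66) highest, and 1, *Cdh3* (-1.92), fell, with a median log2 fold change of 0.21. *Cdh1*, the main cadherin of ES cells, had a log2 fold change of -0.07 and did not pass the test. Of 35 genes within 500 kb of the clusters, 26 were tested, and 7 rose and 3 fell, with a median log2 fold change of 0.02. *Slc25a2* rose by 0.56 and *Gnpda1* by 0.48, while *Dnd1* had a log2 fold change of -1.04 and *Tmco6* one of -0.73.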

How the data were processed

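RNA-seq of 3 WT and 2 KO lines and ZFP57 peaks were used. The authors deposited FPKM with 2 decimals per gene (mm10), and depth was inferred from the steps between values. The authors deposited peaks as start and end positions on mm10, with no score, called in at least 2 WT replicates per the paper. The submitters' notes list STAR 2.5.2, BWA 0.6.2 and MACS2 2.1.0, and the counting program and annotation are not given in the sources used here. Another peak list, named for hybrid cells, served as an alternative.

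The test was limma 3.58.1 (eBayes with trend, R 4.3.3) across all genes averaging 0.1 FPKM or more, on log2(FPKM + 0.1), which understates changes of low genes. Calls needed a Benjamini-Hochberg adjusted p under 0.05. The test was checked on simulated data. Lengths, exons and starts are from RefSeq on GRCm38. Whether replicates come from separate embryos is not stated for each line, so p-values measure the spread between these libraries. Software was Python 3.11.15, pandas 2.3.3, numpy 2.4.6 and matplotlib 3.10.9. The members and lists were chosen with earlier results of these data known. Named were the C-type members, the 3 members of each cluster with the highest mean, 2 gamma members at each end of the log2 fold changes, the 3 whose starts lie nearest to a peak (7 span one), and the 2 highest and 2 lowest called genes of each list. Other genes were chosen after their values were seen. Ratios to the joined transcripts and levels of own exons were also added after the values were seen. Sequences of the members, KAP1, H3K9me3 and the hybrid libraries are not reported here.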

Additional observations from a re-analysis of the deposited data

How the results depend on the processing

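All 22 gamma members stayed called higher in KO, and none lower, under other pseudocounts (0.01 and 1), filters, scalings and variance models, and without each library in turn (22 to 22). Their median log2 fold change ran from 0.44 (pseudocount of 1) to 0.55 (without WT replicate 1). All 84 values of the 6 named members that were tested kept their direction and their side of the threshold. WT and KO libraries with the same number did not deviate together (correlations of -0.07 and -0.04). With 2 KO libraries, whose deviations mirror each other, this check cannot exclude that libraries with the same number were paired. With the replicate block, in which WT replicate 3 has no partner and adds nothing, 22 gamma members stayed called with adjusted p up to 0.0488, while the calls over all genes went from 6002 to 3012. Asking for a log2 fold change of at least 0.5 left 14 members and at least 1 left 0. Without a filter on low values 17 beta and 14 alpha members entered the fit, and 1 beta member, *Pcdhb22*, was called (log2 fold change of 0.44 on the log2(FPKM + 0.1) scale, limma adjusted p = 0.0179). At an unadjusted p under 0.05 there were 2 beta and 0 alpha members. The peak counts of 2 inside the clusters and 10 members within 20 kb were the same with the hybrid list. Windows of 0 to 100 kb gave 7 to 12 members. The ratio of summed own exons, 1.94 with listed lengths, was 2.20 with first exons 200 bp shorter and values below 0 set to 0, and 2.41 with those values kept, which follows from the length. The count of 17 ratios above all WT libraries ran from 17 to 19 without single libraries and was 16 beyond rounding, and the count of 2 below was 1 beyond rounding. Alpha and beta values rest on about 0 to 11 fragments, so counting error is large there.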
